A study of Mus musculus with 18 samples.

Results

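The nuclear genes of the respiratory complexes were followed in TC1 cells, a tumour line from mouse labelled fibrosarcoma. Nat10 (in sgNAT10 cells) or Myc (in sgMyc cells) was the target of guide RNAs, and each edited line was set against unedited WT cells. Genes were taken by symbol (Nduf with a subunit letter and number, Sdha to Sdhd, Uqcr, Cox4 to Cox8 and Atp5), which gave 81 of the 17379 genes of the sgNAT10 mRNA table. They comprised 37 genes of complex I, 4 of complex II, 8 of complex III, 14 of complex IV and 18 of complex V, the last with the processed pseudogenes Atp5l-ps1 and Atp5l2-ps. Of these, 76 were in the Ribo-seq table and all 81 were also listed in the sgMyc set. Symbols set the complex, so Ndufa4, now known as a complex IV subunit, was counted with complex I, and Cox7a2l, a factor that joins complexes III and IV into supercomplexes, with complex IV.

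Messenger RNA came from 2 sgNAT10 and 2 WT libraries in a first set and from 3 sgMyc and 3 WT libraries in a second set. Ribosome footprints (Ribo-seq) came from 2 sgNAT10 and 2 WT libraries. RNA carrying N4-acetylcytidine was precipitated (acRIP-seq) from 1 sgNAT10 and 1 WT sample, each with 1 input library. The labels give all groups as the same line with no further treatment, and name no control guide. They state neither whether an edited line was 1 clone nor whether replicates were separate cultures, so p-values measure the spread between these libraries, which may be technical.

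The respiratory chain passes electrons along complexes I to IV of the inner mitochondrial membrane and pumps protons, and complex V, the ATP synthase, uses the proton gradient to make ATP. Most subunits are encoded in the nucleus, translated in the cytosol and imported, while the mitochondrial genome encodes a small set of core subunits. NAT10 is the enzyme that writes N4-acetylcytidine into RNA, and MYC is a transcription factor whose known targets include genes of mitochondrial function.

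The promoters of 7 genes on which the results turn are given first. They are the 5 complex III genes that had an entry, all with mRNA lower in sgNAT10 cells, then Cox7a2l, the member with the largest mRNA change, and Ndufb10, the gene higher in both mRNA and footprints. Each line holds 150 bases from RefSeq on GRCm38.p6, from 120 before to 30 after the start of the gene, 5′ to 3′ on the gene's own strand. Capitals mark the NRF1 motif (GCGCANGCGC, here in Uqcrc1, on the other strand), the ETS motif (CCGGAAG, in Uqcr11 and, on the other strand, in Uqcrh) or the GC box (GGGCGG, in Cox7a2l).
Uqcrc1, chr9:108936528-108936677, plus strand: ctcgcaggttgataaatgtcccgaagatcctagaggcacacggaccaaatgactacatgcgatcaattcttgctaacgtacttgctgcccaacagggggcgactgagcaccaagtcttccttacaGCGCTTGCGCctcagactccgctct
Uqcrfs1, chr13:30545287-30545436, minus strand: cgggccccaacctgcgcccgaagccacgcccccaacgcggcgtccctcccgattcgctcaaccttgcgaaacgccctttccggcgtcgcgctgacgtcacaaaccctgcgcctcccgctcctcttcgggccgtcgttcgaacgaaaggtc
Uqcrh, chr4:116075041-116075190, minus strand: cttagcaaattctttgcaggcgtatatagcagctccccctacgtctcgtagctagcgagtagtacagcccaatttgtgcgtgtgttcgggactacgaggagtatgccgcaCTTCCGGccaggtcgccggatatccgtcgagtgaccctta
Uqcr10, chr11:4704315-4704464, minus strand: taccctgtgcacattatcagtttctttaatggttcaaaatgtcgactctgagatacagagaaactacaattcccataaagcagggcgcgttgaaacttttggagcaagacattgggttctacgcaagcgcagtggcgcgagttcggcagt
Uqcr11, chr10:80406792-80406941, minus strand: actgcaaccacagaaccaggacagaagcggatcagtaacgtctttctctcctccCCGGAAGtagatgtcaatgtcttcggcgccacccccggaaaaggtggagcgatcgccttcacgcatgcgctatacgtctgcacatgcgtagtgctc
Cox7a2l, chr17:83514304-83514453, minus strand: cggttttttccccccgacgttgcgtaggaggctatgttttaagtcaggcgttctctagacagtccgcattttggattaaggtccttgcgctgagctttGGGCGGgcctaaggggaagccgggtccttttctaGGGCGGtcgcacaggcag
Ndufb10, chr17:24724394-24724543, minus strand: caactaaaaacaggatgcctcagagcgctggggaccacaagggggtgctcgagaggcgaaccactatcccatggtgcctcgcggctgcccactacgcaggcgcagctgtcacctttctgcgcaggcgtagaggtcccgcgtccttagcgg

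Whole windows of 300 bases, from 250 before to 50 after the start, were searched on both strands for 5 motifs, each counted by itself whether or not it overlapped another. RefSeq held 69 windows for 64 of the 81 genes. The NRF1 motif, named for a factor known to drive respiratory genes, was in 26.1% of these windows, against 4.60% of all 32851 promoters. The ETS motif, the letters bound by GABP, was in 23.2% against 8.86%, and the YY1 motif AAGATGGCG in 10.1% against 1.40%. The GC box was in 37.7% of the windows of respiratory genes and in 35.7% of all promoters. The E-box CACGTG, the letters that MYC binds with its partner MAX, was in 8.70% against 7.15%. Among genes that were lower in sgNAT10 mRNA, 29.6% of 27 windows held the NRF1 motif, as did 16.7% of 12 windows of genes that were higher and 29.6% of the 27 windows of genes that did not pass the test. The ETS motif was in 33.3% of the windows of lower, 25% of higher and 14.8% of genes that did not pass, and the GC box in 25.9%, 50% and 44.4%. The YY1 motif and the E-box were in at most 3 windows of each of these groups, and no difference between the groups was tested. A match is a description of the letters and not a site.

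Library totals were 57363229 to 65768024 counts in sgMyc cells and 51875052 to 55900895 in their WT cells. The whole reads behind the FPKM values came to 11964565 and 12707449 in sgNAT10 and 13145150 and 15730061 in WT mRNA libraries, but only to 1514086 and 3148083 in sgNAT10 and 2694834 and 2743627 in WT Ribo-seq libraries. Nat10 mRNA was at 3.59 and 3.95 FPKM in sgNAT10 cells, against 5.36 and 5.30 FPKM in WT cells, and Myc mRNA 39.98 and 40.9 FPKM in sgNAT10 cells, against 115 and 117 FPKM in WT cells. In the sgMyc set, Myc mRNA was 21.1, 20.9 and 34.1 FPKM in sgMyc cells, against 64.8, 61.6 and 70.8 FPKM in WT cells. An edit can leave mRNA in place, so neither level measures the protein. The third sgMyc library stood apart. Across 11837 genes its log2 FPKM correlated at 0.959 to 0.963 with the WT libraries and at 0.931 with each of the other sgMyc libraries, which correlated at 0.995 with each other. Its Nat10 level was also the highest of the set, with 3.52, 3.31 and 6.27 FPKM in sgMyc cells, against 5.01, 4.86 and 5.13 FPKM in WT cells. Results that rest on it are therefore given with and without it. Mesenchymal markers were present (8 of 10 reached 1 FPKM) although Col1a1 stayed at or below 0.264 FPKM (mRNA of the sgNAT10 set). Epithelial markers summed to at most 0.242 FPKM there and, in Ribo-seq, to at most 5.70 FPKM in sgNAT10 and 2.61 FPKM in WT libraries. The mesenchymal sum was 595 to 625 FPKM in sgNAT10 against 308 to 318 FPKM in WT mRNA libraries, and that of macrophage markers 12.2 to 13.7 against 5.49 to 5.996 FPKM. The markers did not move as 1: by the mRNA test given below, 5 of 8 mesenchymal markers were higher and 2 lower. Of 3 macrophage markers only Cd14 was higher, with a median log2 change of 0.04 and a largest of 1.71. Of all genes 33.7% were higher and 29.6% lower. In the sgMyc set the mesenchymal sum was 1163 to 2054 FPKM in sgMyc and 1446 to 1511 FPKM in WT libraries, and the macrophage sum 15.9 to 29.3 FPKM in sgMyc and 11.2 to 12.3 FPKM in WT libraries. Endothelial markers summed to at most 0.262 FPKM in sgNAT10-set mRNA. The part of these shifts in the results below was not tested. In bulk libraries, fewer cells of a kind and less RNA per cell cannot be told apart.

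In sgNAT10 cells, mRNAs of complex III fell nearly together, those of complexes IV and V fell where they changed with few exceptions, and complex I had 28.6% of its genes lower and 25.7% higher, no more than the shares of all genes. Of the 81 genes, 75 passed the filter of a mean of 1 FPKM, and 31 of these were lower and 13 higher than in WT (limma on log2(FPKM + 1), Benjamini-Hochberg adjusted p under 0.05 over 11735 genes). The background was high, since 63.3% of all genes tested were called, 29.6% lower and 33.7% higher. The median change of the 75 genes was −0.07 on the log2 scale, against 0.01 for all genes. Libraries of the 2 genotypes did not overlap, with the edited ones lower, for 40 of the 75 genes, and higher for 19, against 39% and 43.3% of all genes. The genes left out by the filter were Ndufa4l2, Ndufb2, Cox6a2, Cox7a1, Cox7b2 and Atp5l-ps1.

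**Figure D1:**
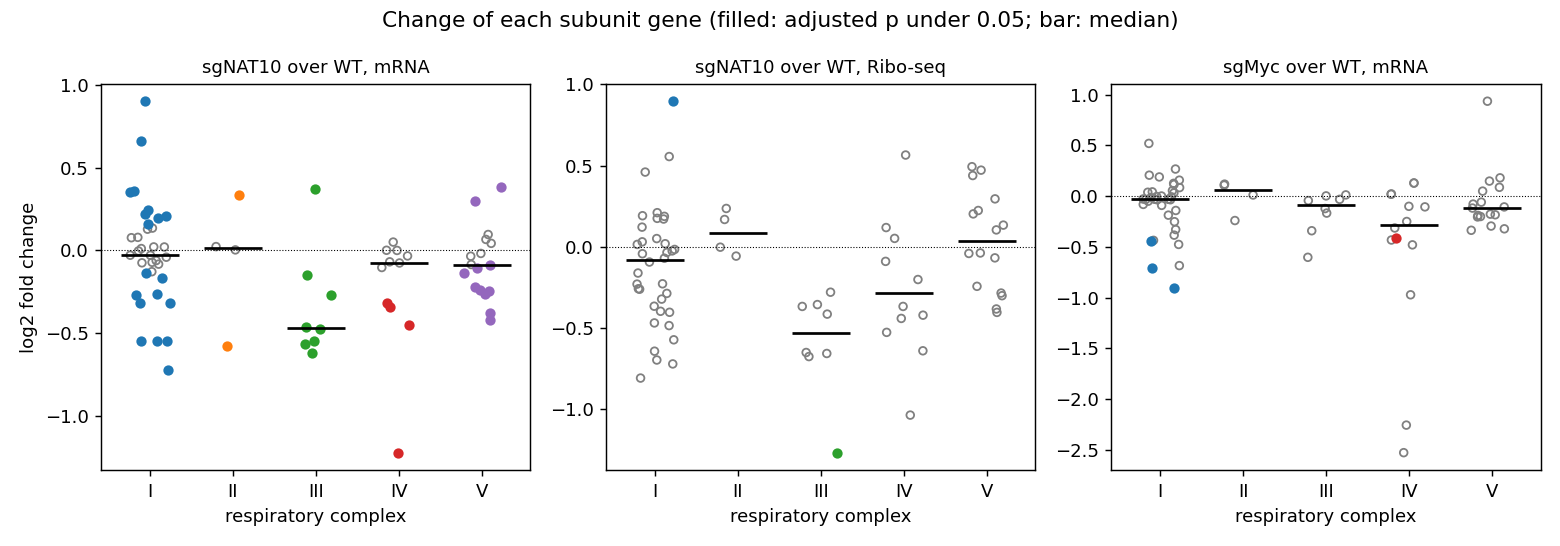
Change in each respiratory complex gene in edited cells relative to their own WT, on the log2 scale, by complex (I to V) for sgNAT10 mRNA, sgNAT10 Ribo-seq and sgMyc mRNA. Each point is 1 gene, filled where it passed the adjusted p of 0.05, and bars are medians. Complex III sits lowest in both sgNAT10 panels, with medians of −0.47 for mRNA and −0.53 for footprints. Cox7b2 is counted in the Ribo-seq median but lies outside the axis and is not drawn.

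Complex III, the cytochrome bc1 complex that passes electrons from ubiquinol to cytochrome c, had 7 of 8 genes lower and 1 higher, with a median of −0.47. The iron-sulfur (Rieske) subunit gene Uqcrfs1 was at 41.8 and 39.6 FPKM in sgNAT10 cells, against 60.6 and 59.4 FPKM in WT cells (−0.55 ± 0.038 log2, adjusted p = 0.0002). Of the core proteins, which form the matrix side of the complex, Uqcrc1 was at 23.6 and 23.9 FPKM in sgNAT10 cells, against 32.5 and 33.8 FPKM in WT cells (−0.47 ± 0.035, adjusted p = 0.00028). Uqcrc2, the other core protein gene, was at 42.2 and 40.6 FPKM in sgNAT10 cells, against 46.00 and 45.8 FPKM in WT cells (−0.15 ± 0.033, adjusted p = 0.013), a fall far smaller than that of Uqcrc1, which did not pass without WT replicate 1 (adjusted p = 0.064) or without WT replicate 2 (adjusted p = 0.057). Of the small subunits, 2 had the largest falls of the complex. Uqcr11 was at 63.8 and 61.6 FPKM in sgNAT10 cells, against 95.7 and 98.5 FPKM in WT cells (−0.62 ± 0.033, adjusted p = 9.3e-05). Uqcr10 was at 83.8 and 78.7 FPKM in sgNAT10 cells, against 119.7 and 122 FPKM in WT cells (−0.57 ± 0.038, adjusted p = 0.0002). In each of these genes both sgNAT10 libraries lay below both WT libraries, as they did for Uqcrq (−0.48) and Uqcrh, the hinge protein gene (−0.27), which has 2 copies named as pseudogenes in RefSeq, so that its level is uncertain. Uqcrb, which encodes a subunit known to bind ubiquinone, went the other way. It was at 83.2 and 80.02 FPKM in sgNAT10 cells, against 63.1 and 62.5 FPKM in WT cells (0.37 ± 0.032, adjusted p = 0.00042), so its 2 sgNAT10 libraries lay above both WT libraries. Summed over the complex, mRNA came to 429 FPKM in sgNAT10 cells and 545 FPKM in WT cells.

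**Figure D2:**
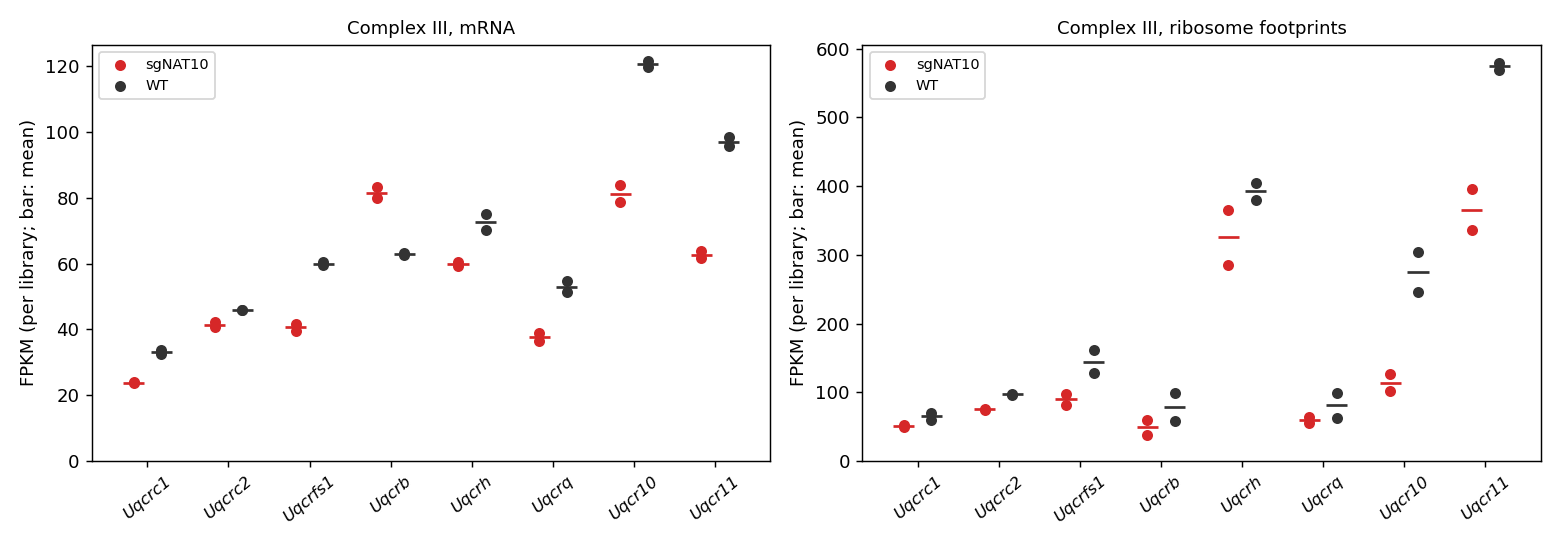
FPKM of the 8 complex III genes in each library, with sgNAT10 left of WT, for mRNA and for ribosome footprints (points are libraries, lines are group means, vertical axis linear from 0). The mRNA of Uqcrb is the only one of the 8 whose sgNAT10 libraries lie above WT, and its footprints do not.

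Complex I, NADH dehydrogenase, had 9 genes higher and 10 lower of 35, with a median of −0.03. The core subunits carry the flavin and the iron-sulfur clusters. Among them Ndufv1, the subunit that binds NADH, was at 20.9 and 20.7 FPKM in sgNAT10 cells, against 29.98 and 31.8 FPKM in WT cells (−0.55 ± 0.04, adjusted p = 0.00025). Ndufs7 (−0.32) and Ndufs8 (−0.26) also fell, and Ndufs1 (−0.13, adjusted p = 0.061), Ndufs3 (−0.07, adjusted p = 0.11) and Ndufv2 (0.02, adjusted p = 0.61) did not pass. Ndufs8 passed with an adjusted p of 0.042 but not without WT replicate 1 (0.12) or WT replicate 2 (adjusted p = 0.10).

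Accessory subunits surround that core and passed the test in both directions. Ndufs6, which encodes a zinc-binding subunit, fell most of the complex, with 13.6 and 12.2 FPKM in sgNAT10 cells, against 21.8 and 22.01 FPKM in WT cells (−0.72 ± 0.056, adjusted p = 0.00029). Ndufb11 (32.1 and 33.6 FPKM in sgNAT10 cells, against 48.96 and 48.2 FPKM in WT cells) and Ndufb8 (7.42 and 6.97 FPKM in sgNAT10 cells, against 11.00 and 10.9 FPKM in WT cells), both of the membrane arm, each fell by 0.55. Ndufs5, the other way, was at 55.1 and 54.9 FPKM in sgNAT10 cells, against 27.7 and 30.3 FPKM in WT cells (0.90 ± 0.048, adjusted p = 9.3e-05). Ndufb10 was at 53.8 and 53.1 FPKM in sgNAT10 cells, against 33.5 and 33.2 FPKM in WT cells (0.66 ± 0.029, adjusted p = 5.6e-05). These were the only 2 respiratory genes above 0.5 log2, and the next in complex I were Ndufa7 (0.36) and Ndufa3 (0.36). Membrane arm genes thus stood at both ends, Ndufb10 higher and Ndufb11 and Ndufb8 lower. The calls of Ndufb7 (lower), Ndufb9 and Ndufc1 (both higher) were lost when single libraries were left out, that of Ndufb7 in all 4 fits, that of Ndufb9 without sgNAT10 replicate 1 (adjusted p = 0.12) or WT replicate 1 (0.15), and that of Ndufc1 without WT replicate 2 (0.089). Ndufs5 has a copy named as a pseudogene in RefSeq, and how reads that match both were counted is not given in the sources used here, so its level is uncertain.

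Complex II, succinate dehydrogenase, is the complex shared with the tricarboxylic acid cycle and is encoded by 4 nuclear genes, which diverged. Sdhd, a membrane anchor gene, was at 47.9 and 48.7 FPKM in sgNAT10 cells, against 71.7 and 73.9 FPKM in WT cells (−0.58 ± 0.031, adjusted p = 9.2e-05). Sdhb, the iron-sulfur subunit gene, was at 22.5 and 22.9 FPKM in sgNAT10 cells, against 17.7 and 17.8 FPKM in WT cells (0.34 ± 0.034, adjusted p = 0.00069). The flavoprotein gene Sdha (0.02, adjusted p = 0.61) and the other anchor gene Sdhc (0.00, adjusted p = 0.95) overlapped between genotypes. Of the 2 anchor genes, Sdhd passed the test and Sdhc did not. With these opposite moves the spread of log2 FPKM over the 4 genes was 0.54 (SD) in sgNAT10 cells and 0.89 in WT cells.

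Complex IV, cytochrome c oxidase, reduces oxygen around a core made by mitochondrial genes, and the nuclear genes encode subunits around it. Of 11 tested, 4 were lower and none was higher (median −0.08). Cox7a2l was at 40.02 and 39.6 FPKM in sgNAT10 cells, against 94.2 and 94.4 FPKM in WT cells (−1.22 ± 0.027, adjusted p = 1.1e-05), the largest change of all 75 genes. Cox8a was at 253 and 235 FPKM in sgNAT10 cells, against 328 and 340.0 FPKM in WT cells (−0.45 ± 0.045, adjusted p = 0.00069). Cox4i1, the form of subunit 4 found in most tissues, was at 129.5 and 127 FPKM in sgNAT10 cells, against 165 and 161 FPKM in WT cells (−0.34 ± 0.028, adjusted p = 0.00037). Cox6a1 was the fourth (−0.32, adjusted p = 0.0023). The 7 others lay between −0.10 and 0.05, and Cox5b was at 57.4 and 55.5 FPKM in sgNAT10 cells, against 57.2 and 55.6 FPKM in WT cells. Tissue-restricted isoforms were near 0: Cox6a2 and Cox7a1, known from heart and skeletal muscle, Cox7b2, known from testis, and Ndufa4l2 all stayed under 1 FPKM in every library of this set, against 63.0 FPKM or more for Cox6a1, Cox7a2 and Cox7b and 47.4 FPKM or more for Ndufa4.

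Complex V had 9 of 17 genes lower and 2 higher, with a median of −0.09. All 5 genes of the catalytic F1 head changed, 4 of them lower. Atp5b, the catalytic beta subunit gene, was at 219 and 222 FPKM in sgNAT10 cells, against 287 and 286 FPKM in WT cells (−0.38 ± 0.025, adjusted p = 0.00019). Atp5d (−0.25), Atp5c1 (−0.11, adjusted p = 0.047) and Atp5a1 (−0.09, adjusted p = 0.034) fell by less. Atp5e, the epsilon subunit gene, was at 29.8 and 29.1 FPKM in sgNAT10 cells, against 23.5 and 23.97 FPKM in WT cells (0.30 ± 0.033, adjusted p = 0.001), above both WT libraries. The 3 genes for the c ring, Atp5g1 (−0.22), Atp5g2 (−0.24) and Atp5g3 (−0.14), which encode the same mature protein, all fell. Atp5k, a membrane subunit gene, was at 32.97 and 30.4 FPKM in sgNAT10 cells, against 42.5 and 43.05 FPKM in WT cells (−0.42 ± 0.046, adjusted p = 0.00096). Of the peripheral stalk that holds the head still, Atp5j was higher (30.9 and 30.6 FPKM in sgNAT10 cells, against 23.3 and 23.4 FPKM in WT cells) and Atp5f1 lower (−0.26), and the other 2 genes did not pass. Leaving out each library in turn ended the call of Atp5a1 in all 4 fits (adjusted p of 0.052 to 0.17), left that of Atp5c1 only without sgNAT10 replicate 1, and ended that of Atp5g3 without WT replicate 1 (adjusted p = 0.058). Atp5b, Atp5d and Atp5e passed in all 4. Atp5c1, Atp5k and Atp5l have copies named as pseudogenes and share the doubt stated for Ndufs5.

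Ribosome footprints ask whether the genes' translation followed. By the same test 2 of 76 genes were higher and 1 was lower, where 3.09% of all 9707 genes were called, 1.81% higher and 1.28% lower. Scaling to equal medians gave 1 higher and 2 lower, where 160 and 127 of all genes were. Uqcr10 was at 102 and 126 FPKM in sgNAT10 cells, against 246 and 305 FPKM in WT cells (−1.27 ± 0.18, adjusted p = 0.025), and both sgNAT10 libraries lay below both WT libraries. Ndufb10 was at 131 and 151 FPKM in sgNAT10 cells, against 81.05 and 69.6 FPKM in WT cells (0.90 ± 0.16, adjusted p = 0.049), again without overlap. These 2 were called in the same direction in mRNA. Cox7b2 was at 10.9 and 7.49 FPKM in sgNAT10 cells and listed at 0 in both WT libraries. It thus passed the filter only through the sgNAT10 libraries, where the recovered reads came to at least 3 and 1. Its mRNA was under 1 FPKM in all 4 mRNA libraries. Its call is in the counts above but is not read as a result, and no fold is given. Leaving out any 1 library leaves a group of 1, a fit that cannot decide on calls, so only its changes are given. They were −1.42 to −1.11 for Uqcr10 and 0.79 to 1.01 for Ndufb10. With all libraries kept, the call of Ndufb10 was lost in 6 of the 9 other settings. These were pseudocounts of 0.1 or 0.5, no filter, median scaling, no trend or the replicate block (adjusted p of 0.052 to 0.19). That of Uqcr10 was lost in 1, limma without a trend (adjusted p = 0.13). With the recovered reads edgeR called 1 gene higher (Ndufb10) and 4 lower (Uqcr10, Uqcr11, Cox5b and Ndufv1), where it called 7.88% of all genes.

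Footprint libraries did not overlap for 22 genes that were lower and 9 that were higher, against 25.6% of all genes in each direction. All 8 complex III genes had footprint changes below 0, with a median of −0.53, and 6 of them were lower without overlap. Uqcr11 was at 336 and 395 FPKM in sgNAT10 cells, against 579 and 569.7 FPKM in WT cells (−0.66 ± 0.12, adjusted p = 0.057). Uqcrfs1 was at 97.6 and 82.1 FPKM in sgNAT10 cells, against 128 and 161 FPKM in WT cells (−0.67 ± 0.18, adjusted p = 0.12). Both missed the threshold although their libraries were apart. Uqcrb, higher in mRNA, was at 59.8 and 38.4 FPKM in sgNAT10 cells, against 98.8 and 58.01 FPKM in WT cells (−0.65 ± 0.32, adjusted p = 0.33), and its libraries overlapped. In the other complexes, the gene with the lowest p of complex II was Sdhb (0.24, adjusted p = 0.53) and of complex V Atp5k (−0.38, adjusted p = 0.12). Sdhd and Cox7a2l, whose mRNA fell most in their complexes, showed no call in footprints, with 91.02 and 103 FPKM in sgNAT10 cells, against 81.7 and 115 FPKM in WT cells for Sdhd and 11.97 and 4.04 FPKM in sgNAT10 cells, against 17.7 and 6.25 FPKM in WT cells for Cox7a2l. Over the 74 genes measured in both assays, mRNA and footprint changes correlated at r = 0.43 (rho = 0.42), and over all 9200 such genes at 0.75 (rho = 0.65), given as descriptions since genes share the libraries.

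**Figure D3:**
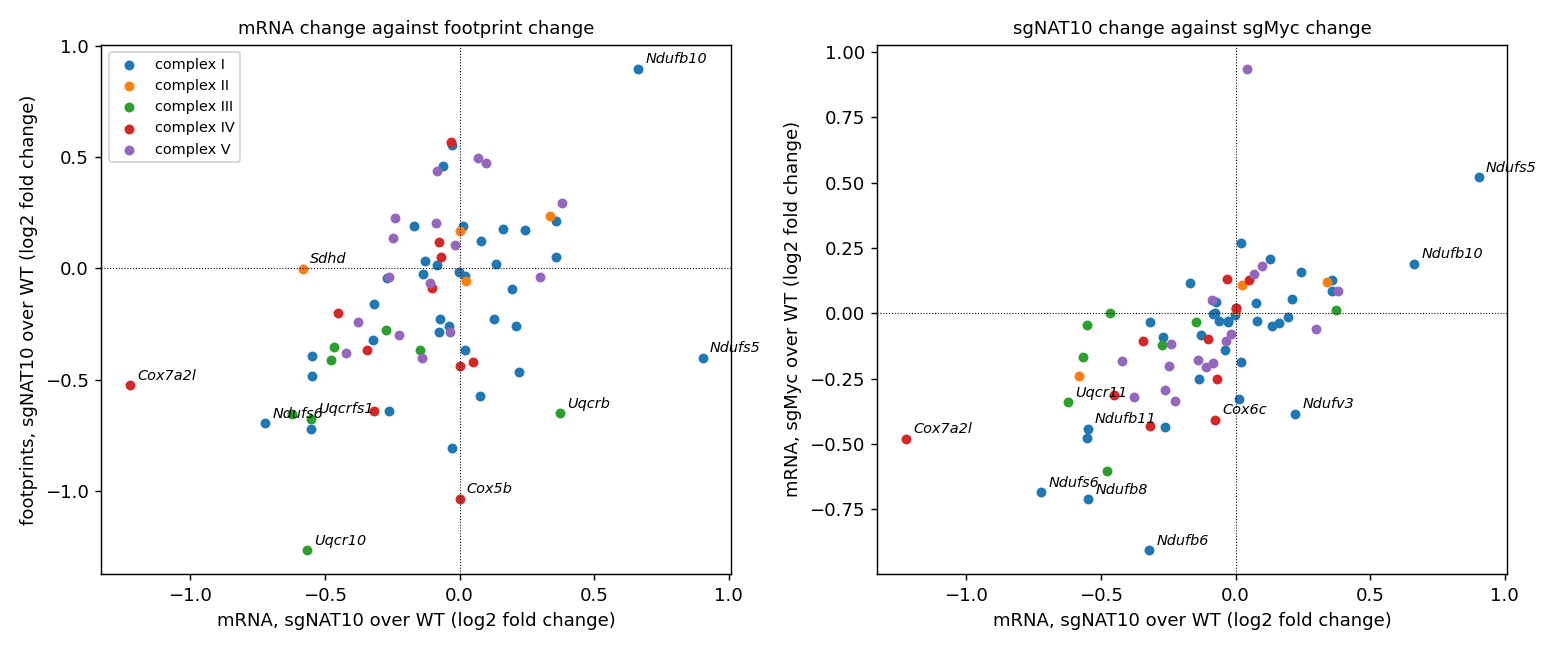
Log2 change in ribosome footprints (vertical) against log2 change in mRNA (horizontal) for sgNAT10 relative to WT, and the same for sgMyc against sgNAT10 mRNA, with 1 point per respiratory complex gene coloured by complex. Complex III points gather at the lower left of the sgNAT10 panel, apart from Uqcrb, which is right of 0 and below it.

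Translational efficiency, the footprint change beyond that of mRNA (limma interaction of genotype and assay), passed for 0 of 74 respiratory genes, and 7 had an unadjusted p under 0.05. Of all 9200 genes only 0.0326% passed, and 745 had an unadjusted p under 0.05. Cox5b had the lowest p (−1.04 ± 0.22, adjusted p = 0.23). Its mRNA change was 0.00 (adjusted p = 1.00), and its footprints were 47.6 and 35.5 FPKM in sgNAT10 cells, against 92.98 and 78.3 FPKM in WT cells. Ndufs5 (−1.31 ± 0.36, adjusted p = 0.39) and Uqcrb (−1.02 ± 0.30, adjusted p = 0.42), both higher in mRNA, had footprints no higher than WT on average, 30.9 and 28.3 FPKM in sgNAT10 cells, against 56.1 and 27.7 FPKM in WT cells in the case of Ndufs5. Cox5b and Ndufs5 have copies named as pseudogenes, and in 4 libraries of this depth a difference of these sizes did not pass the adjustment.

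**Figure D4:**
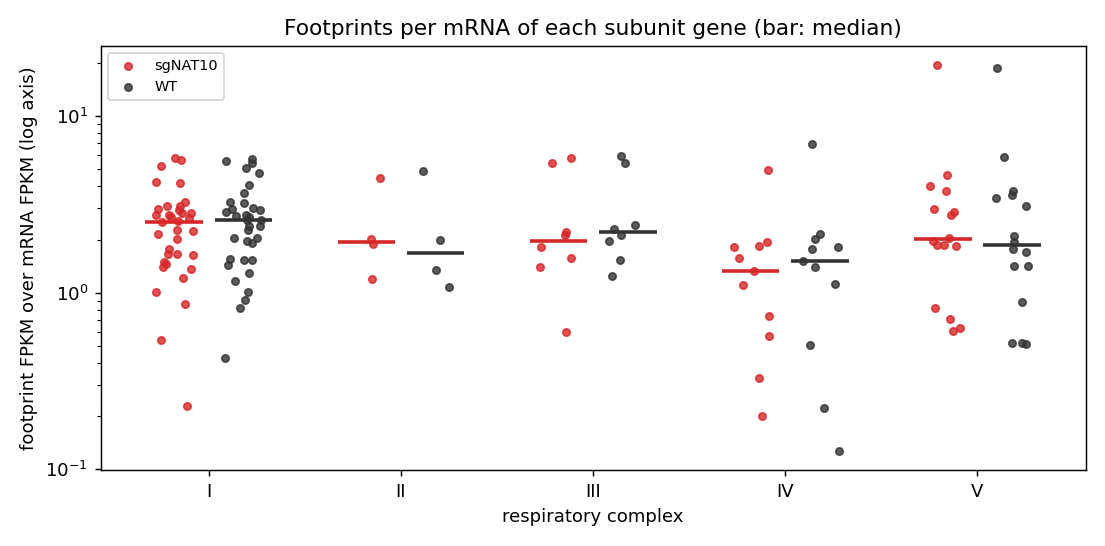
Footprint FPKM divided by mRNA FPKM (mean of 2 libraries each, logarithmic axis) for each respiratory complex gene, with sgNAT10 left of WT, by complex. Complex IV alone runs from 0.127 (Cox7a2l) to 6.95 (Cox7b) in WT cells, and over the 74 genes the 2 genotypes have medians of 1.99 (sgNAT10) and 2.05 (WT).

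Levels per length showed how unequal the subunits of 1 complex are. Median mRNA was 26.3 FPKM in sgNAT10 and 28.6 FPKM in WT cells for complex I, 29.5 and 29.1 for complex II, 50.6 and 61.4 for complex III, 70.7 and 82.6 for complex IV, and 47.3 and 52.2 for complex V. The spread over subunits (SD of log2 FPKM) was 0.61 in sgNAT10 and 0.59 in WT cells for complex III and 1.56 and 1.67 for complex V, where Atp5s, a coupling factor gene, was lowest in WT at 2.55 FPKM and Atp5b highest at 287. In WT cells, footprints per mRNA ran over the 74 genes with both values, all in FPKM, from 0.127 for Cox7a2l to 18.7 for Atp5k, with a median of 2.05 against 1.15 for all 9200 genes. In sgNAT10 cells Cox7a2l was at 0.201 and Atp5k at 19.4. Cox7c, Ndufa12 and Cox6c were also low (0.222, 0.427 and 0.503 in WT), and Cox7b, Uqcr11, Atp5e and Ndufa4 high (6.95, 5.92, 5.88 and 5.69). The gene lengths implied by the recovered reads were the same in both tables for 62 of 76 genes and differed by a whole factor for the other 14, Ndufb10 and Uqcrfs1 among them. Recovered reads can share such a divisor, so for these 14 an equal length could not be checked. Footprints cover the coding part only, and Atp5k, Cox7c and Ndufa12 have copies named as pseudogenes, so the order between genes is a description.

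Editing Myc asks whether the same genes follow that factor. With all 3 sgMyc libraries, 0 of 79 genes were higher and 4 lower (edgeR quasi-likelihood test on counts, Benjamini-Hochberg adjusted p under 0.05 over 16794 genes), where 16% of all genes were called, 7.11% higher and 8.86% lower. Ndufb6 was at 11.6, 14.5 and 18.6 FPKM in sgMyc cells, against 27.3, 27.4 and 29.6 FPKM in WT cells (−0.91 ± 0.19, adjusted p = 0.026). Ndufb8 was at 7.11, 7.76 and 9.71 FPKM in sgMyc cells, against 13.3, 13.2 and 13.9 FPKM in WT cells (−0.71 ± 0.14, adjusted p = 0.02), and Ndufb11 at 30.8, 28.7 and 29.4 FPKM in sgMyc cells, against 41.8, 40.9 and 37.98 FPKM in WT cells (−0.44 ± 0.08, adjusted p = 0.016). These 3 genes of the membrane arm of complex I did not overlap between genotypes, as 21.7% of all genes did not with sgMyc lower, and all 3 were also lower in sgNAT10 mRNA. Cox6c, the fourth, was at 14.5, 14.2 and 15.6 FPKM in sgMyc cells, against 18.9, 20.3 and 19.6 FPKM in WT cells (−0.41 ± 0.079, adjusted p = 0.02). In the complexes with no call, the lowest p fell to Sdhd (−0.24, adjusted p = 0.25), Uqcr11 (−0.34, adjusted p = 0.13) and Atp5f1 (−0.29, adjusted p = 0.11). DESeq2 called 2 genes higher, among them Ndufs5, and 7 lower (the 4 above with Ndufs6, Ndufv1 and Cox6a1), where it called 25.8% of all genes. With limma on the FPKM values 0 were higher and 5 lower, where 753 of all 11907 genes were higher and 1082 lower. In edgeR 17 of the 79 had an unadjusted p under 0.05, as did 5207 of all 16794 genes.

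The call count turned on the third sgMyc library. Without it 38 genes were lower and 7 higher of 79, but 53.6% of all genes were then called, 26.9% lower and 26.6% higher. Lower genes then numbered 14 in complex I, 1 in complex II, 5 in complex III, 7 in complex IV and 11 in complex V, and higher ones 5 in complex I and 1 each in complexes II and V. Ndufb6 (−1.07), Ndufb8 (−0.82) and Ndufb11 (−0.41) kept their direction, as did Cox6c (−0.42), and Uqcrq (−0.97), Atp5g1 (−0.84), Ndufs6 (−0.84) and Atp5b (−0.65) were called lower, along with Sdhd (−0.34), Uqcr11 (−0.42) and Atp5f1 (−0.35). Ndufs5 (0.40), Ndufa6 (0.33) and Ndufb3 (0.27) were called higher. Leaving out any other library of the set left at most 1 call among the respiratory genes. Calls fell for all genes too, to 187 to 423 higher and 493 to 802 lower, against 1194 and 1488 with all libraries.

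**Figure D5:**
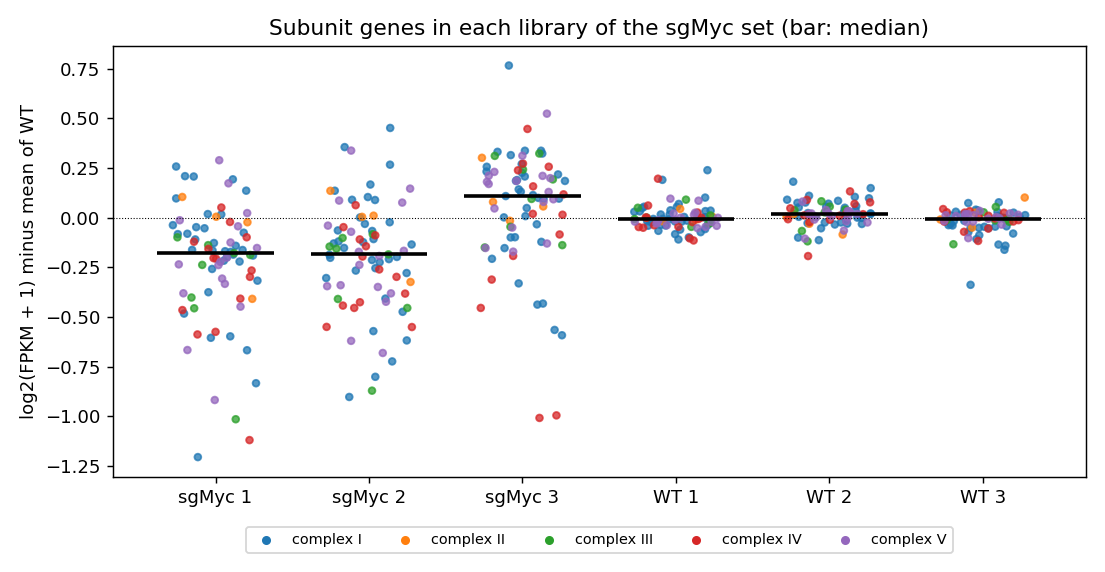
Log2(FPKM + 1) of each respiratory complex gene in each library of the sgMyc set, minus the mean of the 3 WT libraries. Points are genes coloured by complex, bars are medians, and the 3 sgMyc libraries stand left of the 3 WT libraries. Medians are −0.18, −0.18 and 0.11 for sgMyc replicates 1, 2 and 3, so the third library lies on the other side of 0 from the first 2.

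The same split showed gene by gene. Of the 79 genes, 57 lay below all WT libraries in sgMyc replicate 1, 58 in replicate 2 and 24 in replicate 3, and 10, 12 and 47 lay above all of them. Of all 16794 genes tested 43.8%, 44.0% and 42.3% lay below and 37.5%, 37.8% and 35.7% above, against 72.2%, 73.4% and 30.4% below and 12.7%, 15.2% and 59.5% above for the respiratory genes. The median change of the respiratory genes was −0.18, −0.18 and 0.11 in the 3 libraries, while that of all genes was −0.02 in each. All 8 complex III genes lay below every WT library in replicates 1 and 2, and 3 of them in replicate 3, a share near that of all genes. Uqcrq was at 9.87, 11.01 and 20.3 FPKM in sgMyc cells, against 20.98, 21.02 and 20.9 FPKM in WT cells. Atp5b was at 153, 151 and 277 FPKM in sgMyc cells, against 239.8, 244 and 246 FPKM in WT cells. In both genes the first 2 sgMyc libraries were low and the third was not. Cox7a2l ran the other way, with 70.5, 70.7 and 42.1 FPKM in sgMyc cells, against 83.6, 83.6 and 87.5 FPKM in WT cells, the third library being the lowest. Of the isoforms near 0 in the first set, Cox7a1 reached 1.49 FPKM in 1 WT library of this set, and Cox6a2, Cox7b2 and Ndufa4l2 stayed under 1 FPKM.

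The difference of the 2 edits, (sgMyc minus WT) minus (sgNAT10 minus WT), was tested in 1 limma fit over 10265 genes, of which 21% passed, 6.78% higher and 14.2% lower. With libraries scaled to equal medians 2 of 74 respiratory genes were higher and 1 lower, where 866 and 1191 of all genes were. With quantile normalization 6 and 1 were, where 992 and 1229 of all genes were. In the fit without scaling, 1 respiratory gene was higher and 3 were lower. Of those that were lower, Ndufb10, −0.48 ± 0.12 (adjusted p = 0.02), was at 36.03, 36.2 and 42.7 FPKM in sgMyc cells, against 34.97, 33.3 and 32.6 FPKM in WT cells, a change far below its rise in sgNAT10 cells. Ndufv3, a small accessory gene of the flavin module, differed by −0.58 ± 0.16 (adjusted p = 0.034), with 10.1, 9.82 and 7.56 FPKM in sgMyc cells, against 12.5, 11.03 and 12.2 FPKM in WT cells. That change did not pass by itself (−0.38, edgeR adjusted p = 0.085). In sgNAT10 mRNA Ndufv3 was higher, with 12.1 and 12.7 FPKM, against 10.65 and 10.4 FPKM in WT cells (0.22, limma adjusted p = 0.0077). Cox6c differed by −0.31 ± 0.086 (adjusted p = 0.036), lower in sgMyc cells and not past the test in sgNAT10 cells. The calls of these 3 genes were lost in 5 to 9 of the 10 fits that left out 1 library. Without the third sgMyc library the differences were −0.56 for Ndufb10, −0.46 for Ndufv3 and −0.35 for Cox6c. In the fit without it 7 genes were higher and 30 lower, where 59.6% of all genes passed, and complex III genes such as Uqcrfs1 were then among those higher, that is, less low in sgMyc cells. Over 75 genes the changes of the 2 edits, each against its own WT libraries, correlated at r = 0.64 (rho = 0.70), and over all 10867 genes at 0.49 (rho = 0.48). Without the third sgMyc library these were 0.59 (rho = 0.66) and, over 10899 genes, 0.46 (rho = 0.43).

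In the authors' deposited table of acRIP-seq peaks, 13 of 1358 peaks lay in 10 respiratory complex genes, out of 1066 genes with a peak. The genotypes had 1 precipitate each, so there is no test, and the table does not state which genotype its log2 difference puts on top. Of these 13 peaks 11 lay in coding sequence (84.6%, against 59.6% of all peaks), and 11 had a positive difference (84.6%, against 56.8%). Their enrichment over input, the authors' fold, was 1.11 to 2.06 with a median of 1.39, below the 1.77 of all peaks. In the authors' deposited table Atp5b had the most, 3 peaks on the plus strand at chr10:128083333-128084039, chr10:128085055-128085204 and chr10:128088366-128088977, with folds of 1.67, 1.35 and 1.39 and differences of 0.49, 0.753 and 0.615. Among these genes the highest fold in that table was in Ndufa13 (chr8:69895296-69901696, minus strand, fold 2.06, difference 1.39), followed by Ndufb7 (chr8:83571446-83571596, plus strand, fold 1.94, difference −1.05). The authors' deposited table also held Atp5d (chr10:80143966-80145492, fold 1.25, difference 1.35), Cox4i1 (chr8:120672704-120673172, fold 1.31, difference 1.14), Ndufs7 (chr10:80255122-80256735, fold 1.27, difference −0.982) and Ndufb9 (chr15:58936405-58939282, fold 1.52, difference 1.28). Ndufa2 had 1 peak and Atp5a1 had 2. Coordinates are on mm10, every peak lay inside its gene, and 10 of the 13 spanned a splice junction.

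The 10 genes with a peak were mostly abundant, with a median of 53.5 FPKM in WT mRNA against 36.9 FPKM for the 65 without. In sgNAT10 mRNA 7 of the 10 were lower and 2 higher, against 24 and 11 of the 65 without a peak. Of all genes 29.6% were lower and 33.7% higher. A link between peaks and mRNA change was not tested. None of the 10 passed in footprints, where 3.09% of all genes did. Of the genes called in both mRNA and footprints, Uqcr10 and Ndufb10, neither had a peak. The 8 genes of complex III had none. Few genes had a peak at all, 1066 beside the 17379 genes of the sgNAT10 mRNA set, so these absences are given as a description.

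Assembly factors, which build the complexes without staying in them, were read from lists kept apart from the subunits. In sgNAT10 mRNA, where 33.7% of all genes were higher and 29.6% lower, 3 of 16 complex I factors were higher and 7 lower, a share called in either direction near that of all genes. Ndufaf1 (−0.86) and Nubpl (−0.76), which delivers iron-sulfur clusters, fell most, and Ndufaf5 (0.43) and Ndufaf3 (0.37) rose most. Of 5 complex III factors 2 were higher and 1 lower, with Uqcc3 (0.63) and Uqcc2 (0.36) higher and Uqcc1 (−0.16) lower. Of 3 complex II factors Sdhaf1 was higher (0.74) and Sdhaf2 lower (−0.22). Of 21 complex IV factors 6 were higher, led by Cmc2 (0.47) and Cox20 (0.39), and 5 lower, led by Taco1 (−0.78), an activator of mitochondrial translation, and Pet100 (−0.44). For ATP synthase 3 of 4 were lower and none higher, among them Atpaf2 (−0.42) and Atp5if1, the inhibitor of its hydrolysis, at 36.04 and 39.7 FPKM in sgNAT10 cells, against 57.6 and 54.7 FPKM in WT cells (−0.56 ± 0.056, adjusted p = 0.00071). Atp5if1 was also lower in footprints, with 168 and 136 FPKM in sgNAT10 cells, against 317 and 417 FPKM in WT cells (−1.26 ± 0.19, limma adjusted p = 0.027). In the 4 fits without 1 library, which leave a group of 1, its change was −1.46 to −1.06. Electron carriers and subunits whose symbols fall outside the rule were lower in 4 of 5 cases, where 29.6% of all genes were, among them cytochrome c1, Cyc1 (−0.27), a subunit of complex III, and cytochrome c, Cycs (−0.16).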

How the data were processed

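Per the submitters' processing notes, reads passed FastQC and Trim Galore, were aligned with Bowtie2 and counted with featureCounts, and mm10 was the build; versions are not given in the sources used here. The authors deposited FPKM values for both sgNAT10 assays, and counts beside FPKM values for sgMyc mRNA. Per the file headers the acRIP-seq peak list holds a fold enrichment, a log2 difference and significance scores (the authors' p and FDR on log scales). The deposited FPKM values are multiples of 1 read per gene: whole reads were recovered for 99.9% of genes in mRNA and 99.98% in Ribo-seq (tolerance 1e-09). They are the smallest whole numbers and may share a divisor.

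Members and gene lists were chosen with earlier results of these data known. A long noncoding RNA listed by mistake was dropped from the lists. FPKM sets were tested with limma 3.58.1 (trend) on log2(FPKM + 1) where a gene's mean reached 1 FPKM, so folds of low genes are understated. Translational efficiency was tested as a limma interaction of assay and genotype, with 1 weight per assay. Counts were tested with edgeR 4.0.16 (quasi-likelihood, TMM, filterByExpr) and, as an alternative, DESeq2 1.42.0, in R 4.3.3. All p-values were adjusted (Benjamini-Hochberg) over all tested genes at 0.05, and scripts were tested on simulated data. Named genes were, per complex and comparison, the 3 largest called changes each way (or the lowest p), with isoforms, core and F1 subunits, genes with peaks, genes called in the difference of the edits, and the 2 largest of each other list; a gene that falls under this rule is not reported here. Other scalings, filters, pseudocounts, tools, the replicate block and leaving out each library were the alternatives. RefSeq promoters (GRCm38.p6) were matched by symbol.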

Additional observations from a re-analysis of the deposited data

Results flagged for a closer look

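In 3 of 74 respiratory genes the change in sgMyc cells lay below that in sgNAT10 cells, as it did in 14.2% of all 10265 genes. This was a direct test of the difference, (sgMyc minus WT) minus (sgNAT10 minus WT), on log2(FPKM + 1) in limma. The difference was −0.48 for Ndufb10, −0.58 for Ndufv3 and −0.31 for Cox6c. Ndufb10 passed in 8 of 9 other settings and Ndufv3 and Cox6c in 6 of 9. When single libraries were left out, Ndufb10 passed in 5 of 10 fits, Ndufv3 in 4 and Cox6c in 1. The sets were made with separate WT libraries, and the third sgMyc library stands apart from the first 2.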

How the results depend on the processing

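For sgNAT10 mRNA the counts of respiratory genes stayed within 1.5 times under every alternative that kept all libraries. With 1 library left out, which leaves a group of 1, their median change was −0.09 to −0.06. The replicate block gave 13 higher and 28 lower, where 3831 and 3398 of all 11735 genes were, against 3960 and 3471 in the main fit. Median scaling gave 11 and 39, where 3421 and 4096 of all genes were called. Quantile normalization gave 11 and 41, where 3464 and 3992 of all genes were called. These scalings moved the median change of the respiratory genes to −0.14 each, and that of all genes to −0.04 and −0.03. Quantile normalization turned Cox5b in sgNAT10 mRNA to −0.10 from a value of 0.00. In Ribo-seq higher calls fell to 1 with pseudocounts of 0.1 or 0.5, with no filter and with a mean of at least 5 FPKM. They were also 1 with median scaling, without a trend, with the replicate block and in edgeR. In these fits 45 to 399 of all genes were higher, against 176 in the main fit. The lost call was that of Ndufb10 in 6 of the fits. Lower calls were 3 with the mean of at least 5 FPKM, where 146 of all 6214 genes were lower. They were 2 with median scaling (127 of all 9707), 0 without a trend (42 of 9707) and 4 in edgeR (378 of 9855). With any 1 Ribo-seq library left out, which leaves a group of 1, the median change of the respiratory genes was −0.21 to −0.06. Translational efficiency gave 0 calls under every alternative. In sgMyc mRNA DESeq2 gave 2 higher and 7 lower, where 2288 and 2037 of all 16794 genes were. The replicate block gave 2 lower, where 674 of all genes were. Leaving out 1 library gave 0 to 7 higher and 0 to 38 lower, where 187 to 4658 and 493 to 4710 of all genes were. All were highest without sgMyc replicate 3, where Uqcrc1 turned to −0.17 (−0.17 to 0.14 over the libraries left out). The difference of the edits gave 2 higher and 1 lower with median scaling, where 866 and 1191 of all 10265 genes were. Quantile normalization gave 6 and 1 (992 and 1229 of all genes), and no filter 5 lower (1886 of all 16666). The replicate block gave 0 and 0 (346 and 910 of all genes). With 1 weight per set, a setting chosen after seeing the data, 3 and 5 were called (999 and 1916 of all genes). Leaving out 1 library of the sgMyc set gave 0 to 7 higher and 0 to 30 lower, where 440 to 2383 and 1022 to 3732 of all genes were. All were again highest without sgMyc replicate 3, where Cox7b turned to −0.12 (−0.12 to 0.15). The cause of these changes was not tested. Peaks with an absolute log2 difference of at least 1 numbered 6. The SD of log2 FPKM over complex I was 0.898 in the first sgNAT10 library. Same-numbered libraries did not deviate together (correlations between −0.018 and 0.024), so the numbers give no pairing. Of the values of single genes under other settings, 2981 kept direction and side of the threshold, 44 came to pass and 33 no longer passed. A further 96 changed sign with no call on either side, and 1 with a call. They were less steady with 1 library left out. There 2014 kept direction and side, 236 changed sign with no call on either side and 2 with a call, and the others changed side of the threshold. With 2 Ribo-seq libraries a group and 1514086 reads in the shallowest, the smallest called footprint change among these genes was 0.90 on the log2 scale, and the part of depth in this was not tested.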

Other observations

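The 13 mitochondrially encoded genes, for further subunits of the same complexes, had larger footprint changes than the nuclear ones taken by symbol, a difference that was not tested itself. In sgNAT10 mRNA 7 of 13 were lower and 1 higher (limma), where 29.6% of all genes were lower and 33.7% higher, with mt-Nd5 (−0.82) and mt-Co2 (−0.76) lowest and mt-Nd3 (0.74) higher. In footprints 6 of 7 measured were lower and none higher, with a median of −2.24, where 1.28% of all genes were lower. A check of these lists with any 1 library left out was added after seeing the data. It leaves 1 library in a group and cannot decide on calls. The median of the 7 stayed between −2.62 and −1.86 there. mt-Co1, a core subunit of complex IV, was at 14.9 and 13.1 FPKM in sgNAT10 cells, against 170.4 and 160.0 FPKM in WT cells (−3.47 ± 0.17, limma adjusted p = 0.0013). mt-Nd2, of complex I, was at 24.3 and 13.96 FPKM in sgNAT10 cells, against 147 and 158 FPKM in WT cells (−2.98 ± 0.27, limma adjusted p = 0.0078). Nuclear respiratory genes had a median footprint change of −0.09. In sgMyc mRNA 11 of 13 were lower and none higher (edgeR), where 8.86% of all genes were lower, with a median of −0.66, led by mt-Nd2 (−1.02) and mt-Nd1 (−0.94). Without the third sgMyc library all 13 were lower, with a median of −0.66, mt-Nd2 at −1.04 and mt-Nd1 at −1.07, where 26.9% of all genes were lower.

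The tricarboxylic acid cycle, which feeds NADH to complex I, had 9 of 14 genes lower and 1 higher in sgNAT10 mRNA, against 29.6% and 33.7% of all genes. Dld, the dehydrogenase subunit shared by 2-oxo acid complexes, was at 21.5 and 21.4 FPKM in sgNAT10 cells, against 36.96 and 36.8 FPKM in WT cells (−0.76 ± 0.03, limma adjusted p = 4.5e-05), Cs, citrate synthase, at 38.4 and 38.3 FPKM in sgNAT10 cells, against 61.9 and 62.5 FPKM in WT cells (−0.68 ± 0.028, limma adjusted p = 4.7e-05), and Idh2 was the one that rose (0.17). None passed in footprints, and Sucla2 alone was lower in sgMyc mRNA (−0.65). Without the third sgMyc library 7 of the 14 were lower and 1 higher, against 26.9% and 26.6% of all genes. Of 11 regulators of these genes 6 were lower in sgNAT10 mRNA and none higher, against the same 29.6% and 33.7%. They included the coactivator gene Ppargc1b (−0.84), the receptor gene Esrra (−0.82) and Tfam (−0.50), which packages mitochondrial DNA. In footprints 0 of 10 regulators passed, with a median of 0.06, where 3.09% of all genes passed. Esrra had the lowest p there and went the other way from its mRNA (1.61, limma adjusted p = 0.15). In sgMyc mRNA 0 of 12 passed, where 16% of all genes did. Without the third sgMyc library 4 were lower and 1 higher, against 26.9% and 26.6% of all genes.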
